A study of Mus musculus with 7 samples.

Results

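Glioma cells that carried 1 functional allele of Ptprd were compared with glioma cells that carried both. The comparison uses 4 of the 7 arrays of the series, taken by the genotype in their titles: 2 titled Ptprd+/- and 2 titled Ptprd+/+. The other 3 arrays, from Ptprd-/- tumours and called null here, entered the fit to estimate the spread. All mice of these groups also lacked p16 (p16-/-), carried the receptor tv-A under the Nestin promoter and came from a cross of C57/BL6 with FVB/N (a mixed background). RCAS PDGFB GFP, a retroviral vector that delivers platelet-derived growth factor B and a fluorescent marker only to cells with tv-A, was injected between postnatal day 1 and day 3, and tumours were collected at symptoms or by 12 weeks, so ages at collection can differ between arrays. Living GFP-positive cells were sorted, and 75 ng of total RNA was labelled from its 3' end. The tumours all grew under forced PDGFB and without p16, and the labels do not say whether an array holds 1 mouse or which exons of Ptprd the allele removes. Any p-value given here reflects only how far these arrays differ from one another, which may be technical.

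Ptprd encodes a receptor-type tyrosine phosphatase that removes phosphate from tyrosine residues inside the cell and binds adhesion partners across synapses outside it. It lies on the same mouse chromosome as the p16 locus and is often lost in human glioblastoma. Cells of PDGFB-driven gliomas resemble oligodendrocyte progenitors, a dividing glial type that carries receptors for PDGF and expresses many synaptic and adhesion genes.

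Of 12393 genes named by a single-gene probe set, 9243 were bright enough to test. Levels are log2 values, so a difference of 1 is 2-fold, and differences are heterozygous minus wild type with their SE. A gene is called, or said to rise or fall, where limma's moderated test gave an adjusted p (Benjamini-Hochberg over the 9243 genes) under 0.05. By this rule 388 genes rose (4.20% of those tested) and 550 fell (5.95%), and the counts given below for gene lists are to be read against these shares. The median difference over all genes tested was -0.04.

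The arrays stood apart in ways that touch these counts. Heterozygous arrays correlated with each other at 0.992 and with wild-type arrays at 0.976 to 0.985. Heterozygous replicate 1 carried both Xist, the RNA that coats an inactive X chromosome (11.16), and the Y-linked transcript Eif2s3y (9.28), as did null replicate 1, whereas wild type replicate 1 carried only the Y-linked and wild type replicate 2 and heterozygous replicate 2 only the Xist kind. Without wild type replicate 1, wild type replicate 2, heterozygous replicate 1 or heterozygous replicate 2 there were 196, 33, 165 and 802 calls. These are called the 4 omissions below, and counts under them are given in this order. Each of the 4 omissions leaves 1 array against 2 in the comparison, which also lowers the precision of the test. With heterozygous replicate 1 and null replicate 1 both left out, which leaves 1 heterozygous array, limma called 0 genes, with 1802 at an unadjusted p under 0.05 against 2766 with all arrays. In all 4 omissions 29 genes stayed called, 21 higher and 8 lower. Every other gene described as called lost its call in at least 1 omission.

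**Figure D1:**
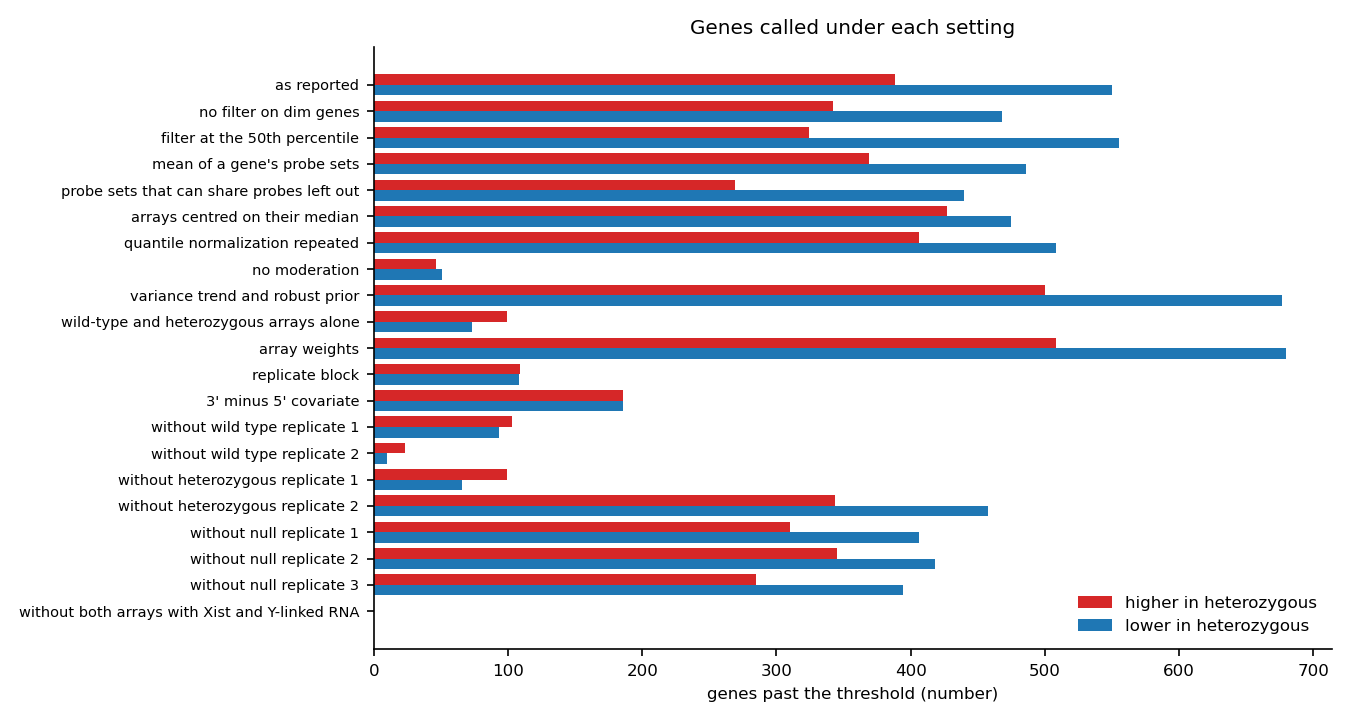
Number of genes past the adjusted p of 0.05 (x axis), higher (red) and lower (blue) in heterozygous cells, with the reported fit at the top and each alternative below it. The reported fit gives 388 and 550, the fit without wild type replicate 2 gives 23 and 10, and the fit without both arrays that carry Xist and Y-linked RNA gives 0 and 0.

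Ptprd RNA was lower on both heterozygous arrays. Its brightest probe set read 10.86 and 10.89 on the wild-type arrays, 9.42 and 9.57 on the heterozygous arrays and 9.61, 8.96 and 9.93 on the null arrays. The heterozygous and wild-type groups did not overlap, and the heterozygous values lay inside the range of the null arrays. The difference of -1.37 ± 0.28 had an adjusted limma p of 0.0311, and each of the 4 omissions ended the call (0.118, 0.162, 0.16 and 0.0708). The other probe sets of Ptprd differed by -1.52 and -1.38. Cdkn2a, which encodes p16 and p19Arf, was still read at 5.78 and 5.83 in wild type and 6.21 and 6.15 in heterozygous cells, in mice labelled p16-/-. Its difference of 0.38 was not called (adjusted p = 0.529), and the part of the locus its probe set reads was not analysed here. Neither probe set of Pdgfb exceeded 4.57 on any array, and Pdgfb fell below the filter on dim genes. Among the 10 tested genes nearest to Ptprd on its chromosome, 3 were lower and 0 higher. They are Brinp1 (-0.66), Kdm4c (-0.49) and Ttc39b (-0.81), named after their values were seen. On the whole chromosome 9.37% of 555 genes were called in either direction, against 10.2% of genes elsewhere.

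Markers of the expected tumour cell type were present. All 10 oligodendrocyte progenitor markers on the array were above the filter, and their summed level on a linear scale was 61300 on both wild-type arrays and 36800 and 46400 on the heterozygous arrays. Of these 10, 5 fell and 0 rose (0, 0, 0 and 7 under the 4 omissions, and 2 without any one of the null arrays). Olig2, a lineage transcription factor, went from 11.46 and 11.67 to 10.78 and 11.02 (adjusted p = 0.0251), and Pdgfra, the receptor for the injected growth factor, from 13.74 and 13.72 to 12.90 and 13.28 (adjusted p = 0.0368). Microglia and macrophage markers moved the other way. Of 14 on the array 12 were tested, 10 rose and 0 fell (5, 0, 5 and 6, and 6, 11 and 6 without null replicate 1, 2 or 3), with summed levels of 815 and 617 in wild type and 1520 and 2040 in heterozygous cells, while Itgam and Aif1 lay below the filter. Among the 10, Cd68 passed the filter through its heterozygous arrays alone, so the filter fixed its direction. Pericyte and fibroblast markers summed to 553 and 532 in wild type and to 1280 and 684 in heterozygous cells. Astrocyte markers summed to 5260 and 5480 against 5500 and 5870, a sum that the brightest genes dominate. Of 8 astrocyte markers Gfap and Aldh1l1 (1.46) were called higher and S100b (-0.76) lower, with a median difference of 1.26 (1, 0, 1 and 2 risers under the omissions). Aldh1l1 passed the filter through its heterozygous arrays alone, so the filter fixed its direction, and its other probe set differed by 0.15. Markers of myelinating oligodendrocytes summed to 14000 and 16700 against 18000 and 15600. Endothelial markers summed to 316 and 316 against 252 and 361, and granulocyte markers to 104 and 86.1 against 109 and 103. Of 6 lymphocyte markers, 5 lay below the filter, as did all 3 red blood cell markers. In bulk RNA fewer cells of a type and less RNA per cell cannot be told apart, and the part these markers play in the results below was not tested.

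The 29 genes called under every omission are described next. Among the 21 higher genes were Anxa1 and Anxa2, which are annexins, the protease inhibitor Timp1, the stress genes Gadd45g and Hspb8 and the chromatin protein Hmga2. The 8 lower genes included the mitochondrial coactivator Ppargc1a, the ephrin receptor Epha5 and the adhesion molecule Cntn3. Of the 29, 6 passed the filter through the heterozygous arrays alone, so that the filter fixed their direction: Aldh1a3, Cd109, Fgl2, Ptx3, Tgm1 and Timp1. The other 23 did not depend on those arrays to be tested. The genes were picked by their calls, so their number is a description. Of the 29, 25 have a promoter window in the RefSeq table (GRCm38.p6, 250 bases before to 50 after the start), and the windows of 3 hold TGANTCA, the core letters bound by AP-1, on either strand, which is the same pattern on both. For comparison, 4.97% of the windows of all tested genes and 7.81% of all windows in the table hold it. These are shares of windows, and the 25 genes have 28 windows. The windows of the 3 genes are shown as a description, and a part of AP-1 factors in these rises was not tested. The match is in capitals and the gene's own strand is written 5' to 3'.
Anxa2 (chr9:69453433-69453732, plus strand): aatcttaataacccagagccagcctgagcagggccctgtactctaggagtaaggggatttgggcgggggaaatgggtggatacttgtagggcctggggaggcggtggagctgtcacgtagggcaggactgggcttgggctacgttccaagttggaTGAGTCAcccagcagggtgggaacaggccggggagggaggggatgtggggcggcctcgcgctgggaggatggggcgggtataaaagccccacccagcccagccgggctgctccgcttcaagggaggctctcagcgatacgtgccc
Fgl2 (chr5:21372423-21372722, plus strand): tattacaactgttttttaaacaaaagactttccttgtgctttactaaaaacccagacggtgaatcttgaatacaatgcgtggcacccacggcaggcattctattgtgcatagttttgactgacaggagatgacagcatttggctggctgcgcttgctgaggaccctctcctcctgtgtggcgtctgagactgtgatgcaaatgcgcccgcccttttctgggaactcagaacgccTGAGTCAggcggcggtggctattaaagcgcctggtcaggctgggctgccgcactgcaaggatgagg
Mt2 (chr8:94172368-94172667, plus strand): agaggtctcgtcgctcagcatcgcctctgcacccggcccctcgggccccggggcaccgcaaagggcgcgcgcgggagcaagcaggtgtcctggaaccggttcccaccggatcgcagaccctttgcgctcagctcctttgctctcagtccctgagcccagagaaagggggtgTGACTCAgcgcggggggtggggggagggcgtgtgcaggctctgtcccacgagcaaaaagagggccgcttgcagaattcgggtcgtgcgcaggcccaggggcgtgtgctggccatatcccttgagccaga
A match is a run of letters and does not show binding.

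Anxa2, a calcium-dependent membrane-binding protein, had the smallest p of these genes. It read 5.91 and 5.72 on the wild-type arrays and 8.56 and 8.56 on the heterozygous arrays, and the null arrays lay between 6.28 and 6.51. It rose by 2.74 ± 0.12 (adjusted p = 0.00078), although the smallest of its 3 probe sets differed by only 0.04. Fgl2, a secreted relative of fibrinogen, read 3.95 and 3.75 against 5.57 and 5.63 and was called higher, but its wild-type and null levels (up to 4.29) were all below the filter, so the size of its difference is uncertain. Mt2, a metallothionein that binds zinc and copper, went from 9.20 and 8.92 to 11.57 and 12.07 (2.76 ± 0.20, adjusted p = 0.00216). For each of the 3, both heterozygous arrays were above all 5 other arrays.

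Other stable rises covered secreted, stress and membrane proteins. Timp1, the metalloprotease inhibitor, read 4.31 and 4.22 in wild type and 8.51 and 7.88 in heterozygous cells. Gadd45g, a stress-induced growth-arrest gene, read 7.17 and 6.96 against 10.17 and 9.85, a rise of 2.95 ± 0.16 (adjusted p = 0.00104), and null arrays stayed between 6.79 and 7.11. Tgm1, a protein-crosslinking transglutaminase, went from 3.85 and 3.65 to 6.35 and 6.86, and Cd109, a GPI-anchored coreceptor for TGF-beta, from 4.28 and 3.86 to 6.45 and 6.56. The wild-type and null values of Timp1, Tgm1 and Cd109 were below the filter, so the sizes of their differences are uncertain. Hspb8, a small heat shock protein, rose by 1.56 ± 0.13 with all 3 probe sets between 0.69 and 1.56. Hmga2, an architectural chromatin protein of embryonic and tumour cells, read 6.80 and 7.20 against 9.39 and 9.68 and rose by 2.53 ± 0.27, with 3 probe sets between 2.37 and 2.95. Emp3, Crip1, Epcam, S100a6 and the transcription factor Myc were among the others, with rises between 1.55 and 2.75. Srgn, a proteoglycan of secretory granules that leukocytes also make, rose by 1.95.

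The stable falls were fewer and tighter. Ppargc1a, the coactivator that drives mitochondrial biogenesis and fatty acid oxidation, read 9.43 and 9.52 in wild type, 7.84 and 7.89 in heterozygous cells and 9.26 to 9.44 in null cells. It fell by 1.61 ± 0.11 (adjusted p = 0.00216), and its 5 probe sets lay between -1.76 and -1.43. Svil, which links actin to the membrane, went from 9.64 and 9.58 to 8.28 and 8.26 (-1.34 ± 0.10). Epha5, an ephrin receptor, went from 8.81 and 8.63 to 6.98 and 7.15 (-1.65 ± 0.13). For these genes the heterozygous arrays were below all 5 others. Sez6l fell by 1.52, the semaphorin Sema5a by 1.33 and Ednrb, the endothelin B receptor of glial progenitors, by 1.18. Cntn3, a contactin, and Nrg3, a neuregulin that binds ErbB4, fell by 1.98 and 1.91 (the other probe set of Nrg3 by 0.13) and lay below the filter on both heterozygous arrays.

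**Figure D2:**
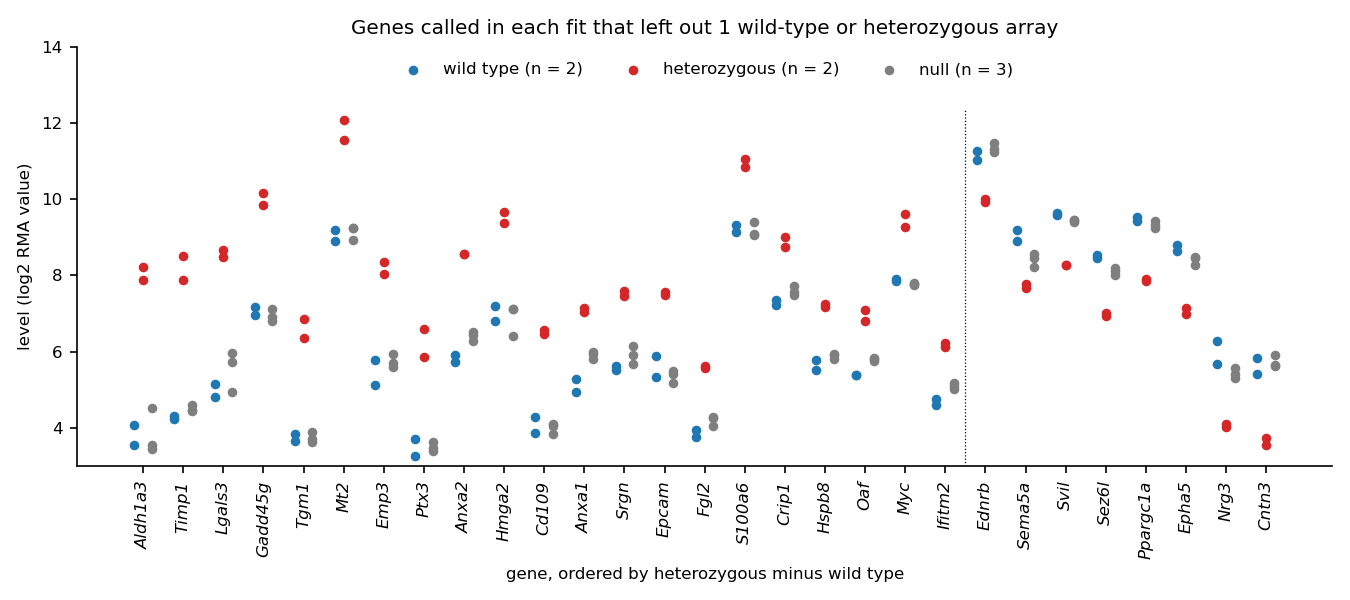
Level (log2 RMA value, y axis) of the 29 genes called in each of the 4 fits that left out 1 wild-type or heterozygous array, with 1 point per array and genes ordered by the difference. For the 21 genes left of the dotted line the heterozygous points (red) lie above every wild-type point (blue), and for the 8 genes right of it they lie below.

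Genes of the protein-making machinery were higher by small amounts. Of 46 cytosolic ribosomal protein genes tested, 45 differed upwards, 17 rose and 0 fell, and the median difference was 0.42 against -0.04 over all genes. Set against the wild-type mean, the median of the list was 0.50 on heterozygous replicate 1 and 0.32 on replicate 2. Rpl41, a small subunit-bridging protein, read 12.82 and 12.74 in wild type, 13.68 and 13.47 in heterozygous and 12.99, 12.99 and 12.98 in null cells (0.79 ± 0.11, adjusted p = 0.0117). Rps19, a small-subunit protein, read 12.04 and 11.89 against 12.83 and 12.65 (0.78 ± 0.12, adjusted p = 0.0132), and Rpsa, which is also known as a laminin receptor, read 12.50 and 12.37 against 13.12 and 13.04. Heterozygous arrays were above all others for these genes. Fewer calls were left under each of the 4 omissions, and 12, 10 and 10 were left without null replicate 1, 2 or 3. Under the same omissions of a wild-type or heterozygous array the median stayed between 0.32 and 0.50. Ribosomal protein genes have many near-identical pseudogenes. With probe sets that can share probes left out, 20 of them were tested and 6 rose, and of 23 with several probe sets 18 had every probe set above 0.

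Other parts of protein synthesis and turnover moved less. Mitochondrial ribosomal proteins had 7 of 74 rise and 0 fall (0, 0, 0 and 8 under the 4 omissions), with 63 of 74 above 0 and a median of 0.25. Mrpl20 went from 9.32 and 9.30 to 10.06 and 9.98, while Mrpl51, which rose by 0.51, had another probe set at -0.36. Of 52 initiation and elongation factors 3 rose and 1 fell (0, 0, 0 and 3 risers). Eif4ebp1, the mTOR-regulated repressor of cap binding, rose by 1.49 ± 0.28 (adjusted p = 0.0244), Eif4a1, the cap-complex helicase, by 0.80, and Eif2ak4, the kinase that senses uncharged tRNA, fell by 0.46. Proteasome subunits and their chaperones had a median of 0.27, with 5 of 45 higher and 1 lower (1, 0, 1 and 2 risers under the omissions, and 2 without any of the null arrays in turn). Psmg4, an assembly chaperone, read 7.50 and 7.38 against 8.68 and 8.35 and rose by 1.07 ± 0.14 (adjusted p = 0.0105). Psmf1, a proteasome inhibitor, fell by 0.70, though its probe sets ranged from -0.70 to 0.06. Of 47 heat shock genes 3 rose, the small heat shock protein Hspb1 by 1.62 and the mitochondrial chaperonin partner Hspe1 by 0.67 besides Hspb8, and 0 fell. Of 28 aminoacyl-tRNA synthetases only Kars, which charges lysine tRNA, was called (0.63, adjusted p = 0.0489).

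**Figure D3:**
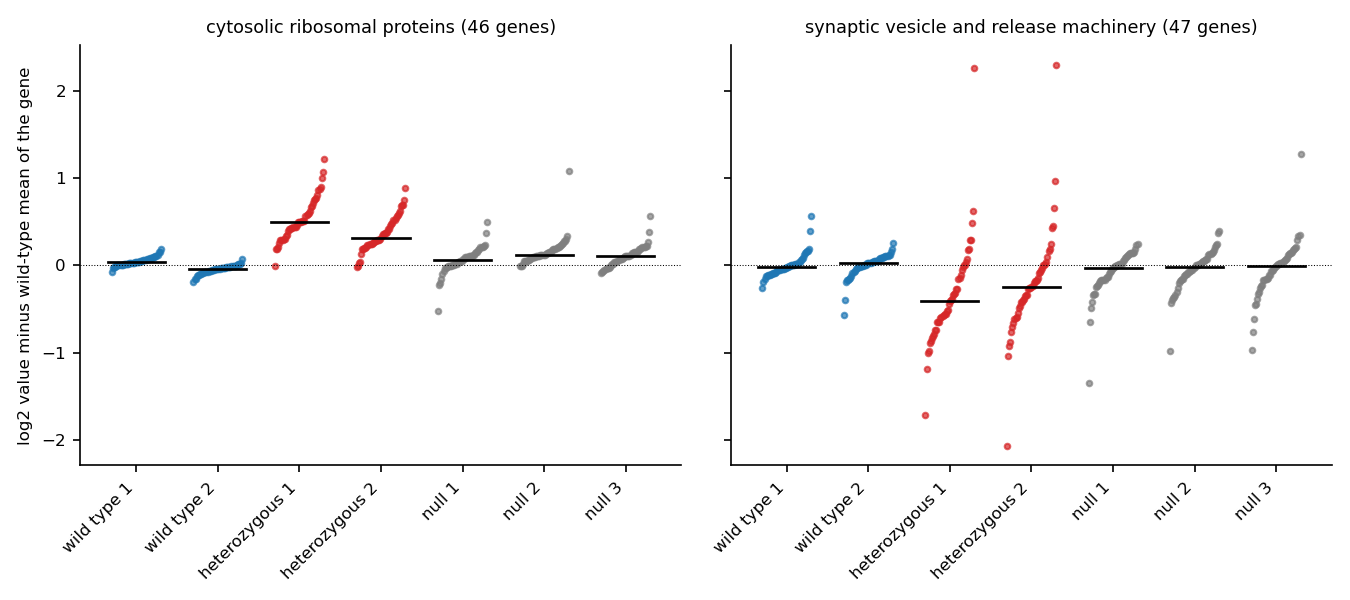
Log2 value minus the wild-type mean of the same gene (y axis) for each tested member of 2 gene lists on each of the 7 arrays, members sorted within an array and the median drawn as a bar. Ribosomal protein medians are 0.50 and 0.32 on the heterozygous arrays, and those of the synaptic vesicle list are -0.41 and -0.24.

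The largest rises included extracellular and membrane proteins with strong differences between the wild-type arrays. Cd44 read 6.21 and 3.79 in wild type and 9.88 and 10.27 in heterozygous cells, and Clca3a1 6.99 and 3.20 against 9.59 and 10.48, so the heterozygous arrays were above both wild-type arrays while these differed over 4-fold from each other. Hpgd, which inactivates prostaglandins, read 8.13 and 6.29 against 9.54 and 10.53 (2.82 ± 0.58, adjusted p = 0.0311). Among genes with closer wild-type values, Myo5b, a motor of recycling vesicles, read 4.05 and 4.03 against 7.61 and 6.65 and was below the filter on all wild-type and null arrays. S100a10, the partner of Anxa2, read 7.06 and 6.68 against 10.20 and 9.39 with both probe sets near 2.9. Nupr1, a stress-induced nuclear protein, read 4.43 and 4.31 against 6.75 and 7.69. Both wild-type values of Nupr1 lay below the filter, so the size of its difference is uncertain. Ptx3, a secreted pentraxin below the filter on all wild-type and null arrays, read 3.71 and 3.26 against 5.87 and 6.61. Cacng5, an auxiliary subunit of AMPA receptors, rose by 2.79 ± 0.38, and Tnc, the matrix protein tenascin-C, by 2.80 ± 0.40. Of the genes that rose, 184 differed over 2-fold and 52 over 4-fold. Of the genes that fell, 122 and 6 did.

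The cytoskeleton changed in part. Of 19 intermediate filament and lamin genes 5 rose and 0 fell (3, 0, 1 and 3 under the 4 omissions), with a median of 0.22. Gfap, the filament of astrocytes, went from 5.30 and 4.95 to 6.72 and 6.50 and Lmna, the nuclear lamin A and C gene, from 5.91 and 6.04 to 7.47 and 7.68. Vim read 9.80 and 9.12 against 11.65 and 11.55, with null replicate 2 at 10.61. One probe set of Lmna was at -0.24, whereas those of Vim lay between 2.14 and 2.55. Actin and focal adhesion genes went both ways, with 9 of 79 higher and 5 lower (3, 0, 2 and 6 risers; 1, 1, 1 and 4 fallers) and a median of 0.01. Pdlim4, a LIM-domain protein of stress fibres, rose by 1.85 ± 0.23, Tagln, an actin-bundling protein, by 1.58 and Cfl2, an actin-severing cofilin, by 0.80, opposite to Svil. Of 41 tubulin and microtubule genes, Tppp3 rose by 1.74 and Stmn3 and Mapre2 fell by 0.62 and 0.63. Of 21 kinesins 0 were called by limma, with 7 at an unadjusted p under 0.05.

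Genes of cell death and inflammatory signalling were called higher more often than lower. The TNF receptor and NF-kappaB list did not shift as a whole, with a median of 0.02 and 20 of 39 above 0. Of 37 BCL2 and caspase family genes 5 rose and 1 fell (2, 0, 2 and 3 risers), with a median of 0.12. Fas, a death receptor, read 3.95 and 3.77 against 5.61 and 5.17 and was tested only because of its heterozygous arrays, since its wild-type and null levels were below the filter. Casp8, the initiator caspase that Fas recruits, rose by 1.18 and Casp4, an inflammatory caspase, by 1.67, whereas the anti-apoptotic Bcl2 fell by 0.59. Pycard, the inflammasome adaptor, rose by 1.33 in 1 probe set and stood at -0.06 in the other. Of 39 TNF receptor and NF-kappaB genes 3 rose and 0 fell (1, 0, 0 and 2). Bcl3, a nuclear partner of NF-kappaB, went from 5.51 and 4.50 to 7.24 and 8.04 (2.63 ± 0.41, adjusted p = 0.0151), Tnfrsf12a, the TWEAK receptor, rose by 1.06 and Nfkb2 by 0.66, with its other probe set at 0.04. Il1r1, the interleukin 1 receptor, read 5.61 and 5.25 against 7.03 and 7.55 and rose by 1.86 ± 0.22 (limma adjusted p = 0.00774). In its list of 22 interleukins and their receptors 2 rose and 0 fell, with a median of 0.004.

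AP-1 and related factors contained risers and fallers. Of 39 tested 5 rose and 2 fell (3, 0, 2 and 2 risers, and 3 without null replicate 2), with a median of 0.09. Junb, an AP-1 subunit, went from 6.19 and 5.95 to 6.998 and 7.159 (1.01 ± 0.12, adjusted p = 0.00864), and Atf3, a stress-induced factor, from 4.85 and 4.25 to 6.388 and 6.005. Cebpd, which acts in the acute-phase response, rose by 1.83 with a second probe set at 0.35, and Hlf, a circadian output factor, fell by 1.08. Of 371 promoter windows of genes that rose, 9.43% held TGANTCA, against 5.24% of 630 windows of genes that fell, 4.76% of 8733 windows of tested genes that were not called and 7.81% of all 32851 windows. TTCNNNGAA, the letters bound by STAT factors, stood in 9.16%, 6.19%, 6.5% and 8.3% of the same windows, searched on both strands. TATAAA stood in 11.9%, 7.78%, 7.1% and 13.6%. The TGANTCA share of the risers was above that of tested genes without a call and near that of all windows. Windows were found for 81.1% of tested genes, some genes have several, and the shares are a description.

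CD antigens and complement genes were called higher more often than the background, on arrays in which microglia markers were higher too. The median of the CD antigen list was 0.03, with 25 of 41 above 0. Of 41 genes named as CD antigens 8 rose and 0 fell (3, 1, 3 and 4), Cd53, Cd68 and Cd52 of leukocytes among them, and also Cd109 and Cd44. Of these, Cd68 and Cd109 passed the filter through the heterozygous arrays alone. Cd52 was above it outside them only on null replicate 2, so it too needed a heterozygous array to be tested. Of 13 complement genes 3 rose, Serping1, the C1 inhibitor, by 2.84 and the microglial C1qa and C1qb by 1.53 and 1.33 (1, 0, 0 and 2, and 1 without null replicate 1 or 3). Of 59 lysosomal genes 4 rose and 3 fell, near the background, and 45 of 59 lay below 0, with a median of -0.22, and the falls dropped to between 0 and 1 without any one array. Ctsh read 4.90 and 4.87 against 7.10 and 6.58 and Ctss, a protease of microglia, 8.11 and 7.46 against 9.49 and 9.64, while Npc1, the lysosomal cholesterol exporter, fell by 0.93. The 4 risers were cathepsins, of 11 cathepsins tested, a subset chosen after its values were seen, and 2, 0, 1 and 1 stayed called under the omissions. Summed microglia markers on these arrays were 1520 and 2040 against 815 and 617, and their part was not tested. Cd53, Cd68, C1qa and C1qb stand in the microglia marker list as well, so these readings share genes.

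Detoxifying and nucleotide enzymes held further rises. Of 24 glutathione transferases and peroxidases 5 rose and 0 fell (1, 0, 1 and 3), although the list's median was 0.04. Mgst1, a membrane-bound transferase, read 6.64 and 6.83 against 8.82 and 8.53, with null replicate 1 at 7.85 and another probe set at 0.10. Gpx1 and Gpx3, which reduce peroxides, rose by 0.51 and 0.98. In nucleotide and one-carbon metabolism 5 of 65 rose and 1 fell (1, 0, 1 and 9), with a median of 0.20. Ada, adenosine deaminase, read 4.66 and 4.36 against 6.36 and 6.12, with wild-type and null levels below the filter, and Nme2, a nucleoside diphosphate kinase, 11.40 and 11.31 against 12.27 and 12.15, whereas Dpyd, which degrades pyrimidines, fell by 1.27. Slc2a1, the glucose transporter GLUT1, rose by 1.49 ± 0.22 (adjusted p = 0.0129) with null replicate 1 at 9.26 between the 2 groups.

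Synaptic vesicle genes fell more often than the background. Of 47 synaptic vesicle and release genes 9 fell and 2 rose, and the median was -0.36 (-0.41 and -0.24 on heterozygous replicates 1 and 2). Snap25, a fusion protein of vesicles, read 9.96 and 9.93 in wild type, 8.97 and 9.24 in heterozygous and 9.91 to 10.08 in null cells (-0.84 ± 0.13, adjusted p = 0.0131). Sh3gl2, endophilin of vesicle recycling, went from 9.26 and 9.37 to 8.32 and 8.44, and Rab3c, a vesicle GTPase, from 7.04 and 7.03 to 5.85 and 6.01. The heterozygous arrays were below all others for these genes. The 2 risers were Syt4, a synaptotagmin of vesicles, by 2.28 ± 0.48 (adjusted p = 0.0321), and Syngr2, a synaptogyrin, by 0.57. The falls called were 1, 0, 0 and 8 under the omissions. Neuron markers summed to 2450 and 2640 in wild type and 1310 and 1750 in heterozygous cells, with Rbfox3 and Syt1 below the filter. Snap25 and Gad1 (-1.24) stand in that list as well and were the 2 called lower. The other 3 of the 5 neuron markers tested differed upwards, and the median over the 5 was 0.03.

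Related groups fell with them. Of 53 Rab genes, which direct vesicle traffic, 8 fell and 0 rose (1, 0, 0 and 4), among them Rab33b of the Golgi, from 10.61 and 10.74 to 9.73 and 9.89. Of 29 postsynaptic scaffold genes 4 fell and 0 rose (0, 0, 0 and 3), including Grip1, which binds AMPA receptors (-0.66). Of 28 leucine-rich repeat neuronal genes 6 fell and 1 rose (0, 0, 0 and 5), with the synapse organisers Lrrtm1 from 9.87 and 9.82 to 8.85 and 9.08 and Slitrk1 from 10.98 and 11.10 to 9.68 and 10.10. In the secretory granule list Chgb, a granin, read 9.09 and 8.95 against 7.21 and 7.52, and Tac1, the substance P precursor, 9.32 and 9.53 against 7.83 and 8.06, but Scg2, another granule protein, rose by 1.75. Of 24 in that list 3 fell and 1 rose (1, 0, 1 and 4 fallers).

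Calcium and cAMP genes were also lower more often than the background. Of 51 calcium-handling genes 8 fell and 1 rose (4, 0, 1 and 9 fallers), with a median of -0.23. Trpc1, a cation channel, went from 8.23 and 8.31 to 7.37 and 7.45 (-0.86 ± 0.10, adjusted p = 0.00749), Orai1, the store-operated calcium channel, from 9.18 and 9.18 to 8.17 and 8.45, and Atp2b2, a plasma membrane calcium pump, from 7.61 and 7.83 to 6.06 and 6.53. Pvalb, a calcium buffer, rose by 1.21. Of 38 cAMP and cGMP genes 6 fell and 1 rose (1, 0, 0 and 5 fallers, and 3 without null replicate 3). Adcy8, a calcium-stimulated adenylate cyclase, read 6.37 and 6.64 against 4.58 and 4.61 (-1.91 ± 0.26). Both heterozygous values of Adcy8 lay below the filter, so the size of its fall is uncertain. Pkia, an inhibitor of protein kinase A, fell by 0.60 while the related Pkig rose by 0.83. Receptor lists held few calls, and the receptors called in them were lower. Of 19 purine, lysophospholipid and amine receptors 2 fell (10.5%) and 0 rose, with a median near 0. Of 22 vascular growth factor and receptor genes 3 fell (13.6%) and 0 rose. Of 19 orphan and adhesion G protein-coupled receptors 3 fell (15.8%) and 0 rose. Of 20 prostaglandin and leukotriene genes 2 rose and 1 fell, and the risers, Hpgd and Anxa1, are not receptors. Il1r1, Fas and Tnfrsf12a, given above and from other lists, are receptors called higher. Hrh1 for histamine fell by 1.43 ± 0.17 (adjusted p = 0.00777), the ATP receptor P2ry1 by 1.13, the prostaglandin E receptor Ptger2 by 1.73, Calcrl by 1.00 and its partner Ramp1 by 0.86.

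Fatty acid and sugar-chain genes held further falls, while transporters as a whole did not exceed the background. Of 65 fatty acid genes 8 fell and 1 rose (2, 1, 2 and 6 fallers). Abcg1, a cholesterol exporter, went from 10.86 and 11.02 to 9.24 and 9.78, Acss2, which makes acetyl-CoA, fell by 0.72 and Hadhb, an enzyme of mitochondrial beta-oxidation, by 0.67, alongside Ppargc1a, whereas the fatty acid carrier Fabp5 rose by 0.83. Of 46 genes of heparan and chondroitin sulfate 6 fell and 1 rose (2, 0, 2 and 4 fallers). The sulfotransferases Chst15 and Chst7 fell by 1.09 and 1.21, and the core protein Sdc4, syndecan 4, rose from 6.83 and 6.72 to 9.18 and 9.66 (2.64 ± 0.26, adjusted p = 0.00491). Of 26 amino acid transporters 3 fell and 1 rose (1, 0, 0 and 2 fallers), with Slc7a10, a carrier of small neutral amino acids and D-serine, from 8.03 and 8.54 to 6.20 and 6.77. Of all 161 solute carriers 7 fell (4.35%) and 3 rose. Of 37 aquaporin, sodium pump and chloride transport genes 3 rose and 1 fell. The 1 that fell was Slc12a5, the neuronal chloride exporter KCC2, which read 7.50 and 7.46 against 5.88 and 5.62 in 1 probe set and differed by 0.10 in its other. Of 37 iron and haem genes 2 rose and 2 fell, with Lcn2, a siderophore-binding lipocalin, higher (7.29 and 9.16 against 3.94 and 3.51, the latter below the filter). Cp, ceruloplasmin, fell by 1.47 with 7 probe sets between -1.60 and -0.16, and Folh1, which cleaves the transmitter N-acetylaspartylglutamate, by 1.65.

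**Figure D4:**
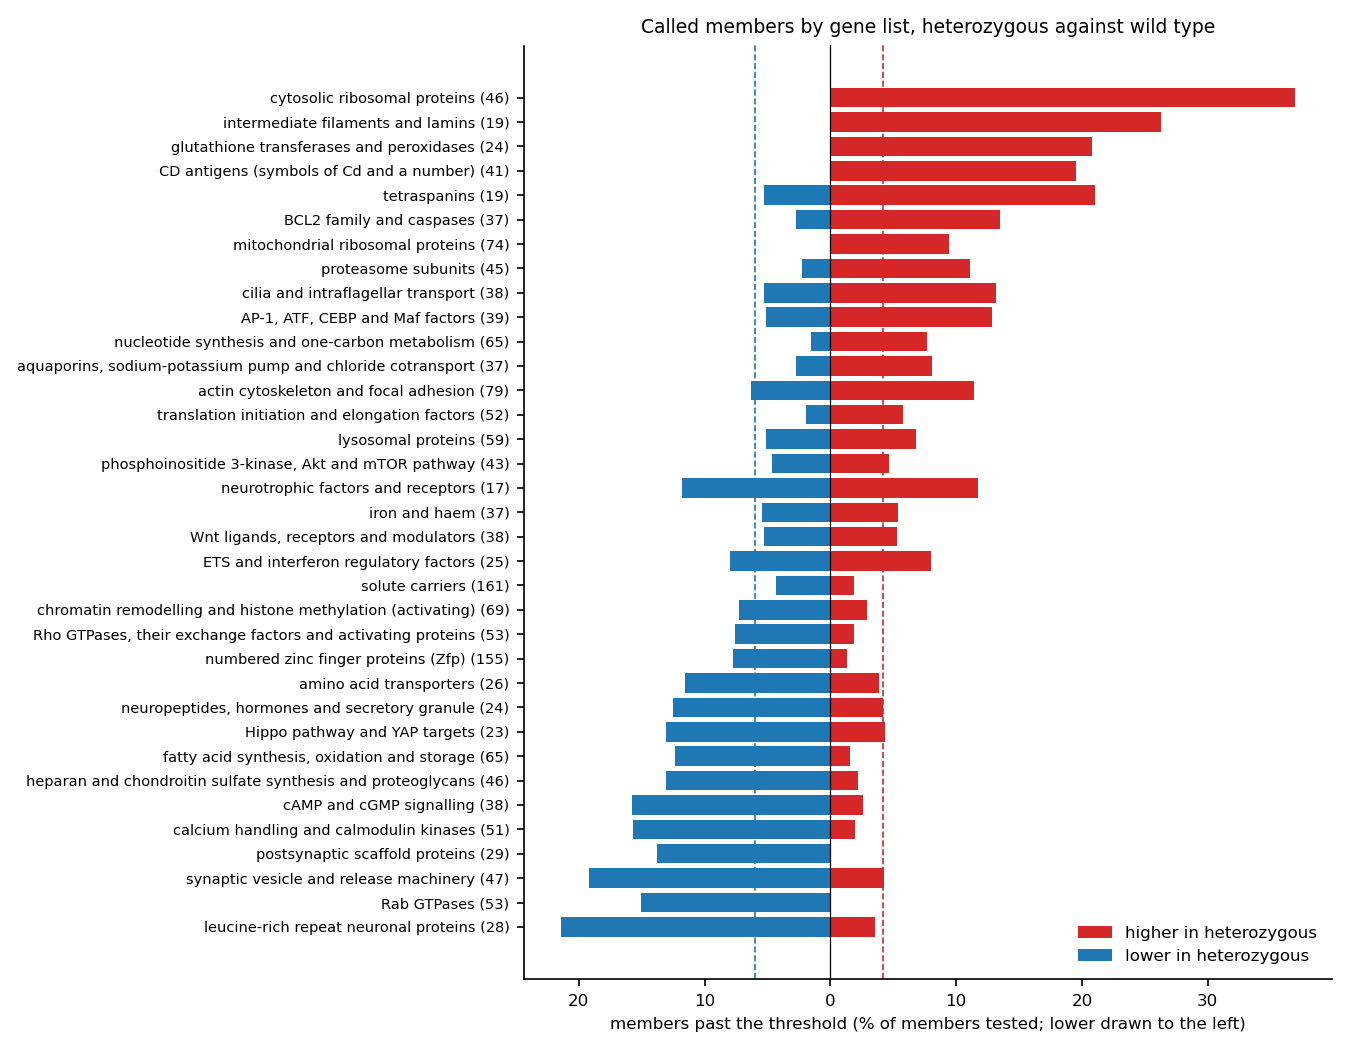
Members past the threshold as a percentage of members tested (x axis; higher to the right in red, lower to the left in blue) for gene lists with at least 15 members tested and at least 4 called; the number tested is in brackets. Dashed lines mark the shares over all genes, 4.20% higher and 5.95% lower; ribosomal proteins reach 37.0% higher and leucine-rich repeat neuronal genes 21.4% lower.

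Genes that fell were longer in the genome than genes that rose. The median span from the first to the last base in RefSeq was 52.4 kb for genes that fell, 12.6 kb for genes that rose and 22.5 kb over all genes tested. Genes were split by span into 5 equal groups. In the shortest group (up to 7.63 kb) 142 rose and 49 fell. In the longest group (from 65.2 kb) 49 rose and 242 fell. Ribosomal proteins had a median span of 3.45 kb and synaptic vesicle genes one of 60.4 kb, so the span and these lists move together. Over all genes of such a group, the median value against the wild-type mean was higher in the shortest than in the longest group by 0.25 and 0.187 on the heterozygous arrays, by 0.15, 0.098 and 0.212 on the null arrays and by -0.025 and 0.025 on the wild-type arrays. The null arrays thus overlap the heterozygous arrays in this measure, and the wild-type arrays, whose own mean is the reference and which therefore mirror each other, lie near 0. Without wild type replicate 2 the shortest group held 10 risers and 0 fallers and the longest 3 and 7. Controls for the 3' and 5' ends of Actb and Gapdh differed by 0.83 and 0.615 on the wild-type arrays and 0.747 and 0.896 on the heterozygous arrays. In a fit with this difference as a covariate, the longest group held 24 risers and 90 fallers and the shortest 65 and 16.

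**Figure D5:**
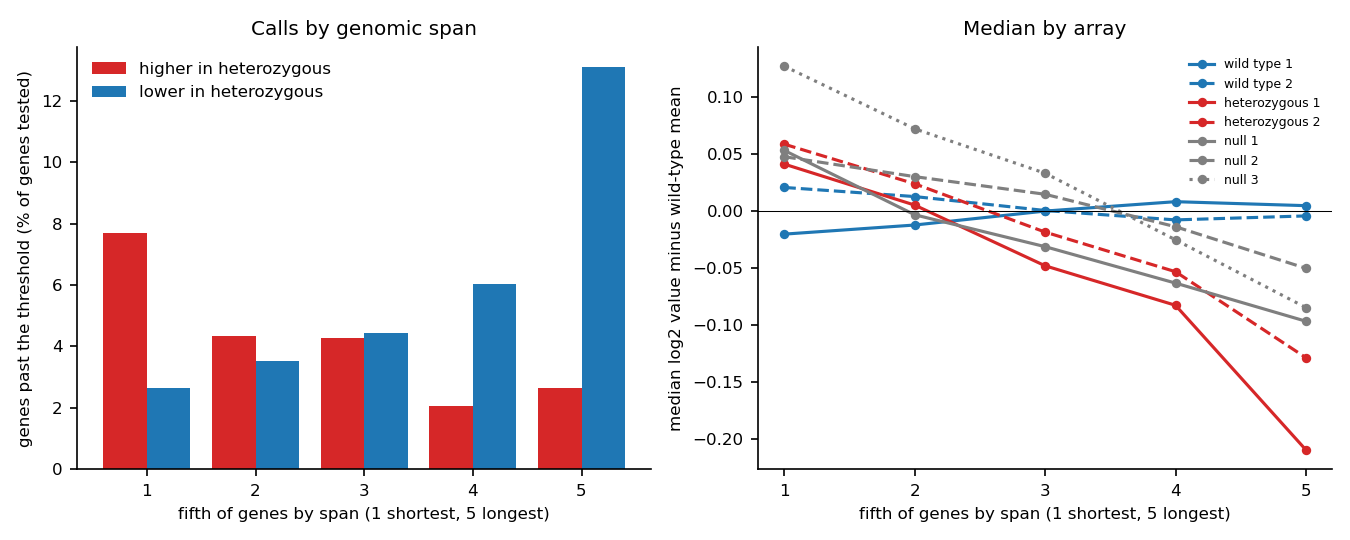
Left, percentage of tested genes called higher (red) and lower (blue) in 5 equal groups by genomic span, from 7.69% and 2.65% in the shortest group to 2.65% and 13.1% in the longest. Right, the median log2 value minus the wild-type mean of the genes of each group for each of the 7 arrays; heterozygous and null arrays slope downwards.

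How far the calls rest on dim levels can be given as counts. Of the genes tested, 51 passed the filter through the heterozygous arrays alone, and 41 of these were called higher, a direction that the filter favours. On both heterozygous arrays 127 genes lay below the filter, of which 12 were called lower. Genes that rose had a median level of 6.78 in wild type, 8.20 in heterozygous and 6.89 in null cells, and genes that fell one of 8.84, 7.98 and 8.71. Of 176 risers with several probe sets, 150 had every probe set in the same direction, as had 245 of 282 fallers, against 2313 of 3889 genes that were not called.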

How the data were processed

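The deposited values are log2 expression values, made by the authors with RMA and Partek 6.6 per the submitters' processing notes; RMA sets the arrays to a common distribution, so a shift of all genes cannot be seen. Among 22690 probe sets there were 64 controls, and the platform annotation gave 1 gene for 20380, several for 691 and none for 1555. Of the single-gene probe sets, 29 had no match in RefSeq (GRCm38.p6). The brightest probe set by mean stood for its gene, which was tested if it lay above the array's 30th percentile on at least 2 arrays, which removed 3150 genes. limma 3.58.1 (R 4.3.3) fitted 1 mean per genotype over the 7 arrays (4 residual degrees of freedom), with two-sided moderated tests and Benjamini-Hochberg adjustment. The fit was tested on simulated data. Gene lists, 69 beside the cell type markers, were made by family or pathway and are described by counts and medians without a test. The members and lists were chosen with earlier results of these data known. Named genes are Ptprd and Cdkn2a; the 20 largest rises and falls whose groups do not overlap and whose probe sets share a sign; the 10 per direction of smallest worst p over the 4 omissions; the 10 brightest per direction; and the 4 members of smallest p per list with the leading opposite call, clones and gene models without a proper name being skipped. Others (Pdgfb, the neighbours of Ptprd, and Crip1, Epcam, Myc, Ptx3, S100a6 and Srgn of the 29) were chosen after their values were seen. The number of arrays limits the precision. Scanner files were not used here.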

Additional observations from a re-analysis of the deposited data

How the results depend on the processing

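Of 20 alternatives, the counts moved by more than 1.5 times in these. Without moderation 97 genes were called (46 higher, 51 lower; 28 list members), with wild-type and heterozygous arrays alone 172 (99, 73; 59), with the 3' minus 5' covariate 372 (186, 186; 127), and without both arrays that carry Xist and Y-linked RNA 0 (0, 0; 0), against 938 (388, 550; 304). With the replicate number as a replicate block 217 genes were called (109, 108; 77), and Ptprd lost its call (-1.37, adjusted p = 0.0535). The numbers need not pair the samples. Between wild-type and heterozygous arrays of the same number the deviations correlated at 0.111, a single value because the 2 arrays of a group mirror each other. Between these arrays and null arrays of the same number the correlations lay between -0.414 and 0.0217. Leaving out 1 array gave 33 to 802 calls (23 to 345 higher, 10 to 458 lower; 9 to 265 list members) and a Ptprd difference of -1.45 to -1.30. Ptprd was also not called without moderation (-1.37, adjusted p = 0.131) or without null replicate 1 (-1.37, limma adjusted p = 0.0522). Without both arrays that carry Xist and Y-linked RNA its difference was -1.30, again without a call. With probe sets that can share probes left out, Lmna (-0.24), Mrpl51 (-0.00738) and Psmf1 (0.0648) changed sign; no other named call did under any alternative. Centring the arrays on their median gave 427 higher and 475 lower. Over all single-gene probe sets without a filter 1073 of 20380 were called.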

Other observations

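Zinc finger, transcription factor, chromatin and developmental genes moved in both directions. Of 155 genes with numbered Zfp symbols, which are not all transcription factors, 12 fell and 2 rose, with a median of -0.20 and 26 of 155 above 0. These are 7.74% and 1.29%, against 5.95% and 4.20% over all genes tested. Zfp36, which marks inflammatory mRNA for decay, rose from 5.86 and 5.50 to 6.90 and 7.15, and Zfp2 fell from 7.87 and 7.88 to 7.23 and 7.21. Under the 4 omissions 0, 0, 1 and 6 zinc finger falls were called, and 7 without null replicate 3. Of 14 Sox genes 3 fell and 1 rose. Sox9, a glial and progenitor factor, went from 5.73 and 5.28 to 6.71 and 6.98 (1.34 ± 0.17, limma adjusted p = 0.00962), whereas Sox21 and Sox5 fell by 1.16 and 0.71. Among 69 chromatin genes 5 fell (0, 0, 0 and 5, and 3 without null replicate 1 or 2), Chd6 by 0.83 and Kat6b by 0.63 included, and 2 rose, Hmga2 and Phf10 (0.73). Ptch1, the Hedgehog receptor and target, fell by 0.86, with another probe set at -0.04, and Wnt5a was called higher, with wild-type and null levels below the filter.

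Ciliary genes were raised in part. Of 38 tested 5 rose and 2 fell (0, 0, 1 and 5 risers under the omissions, and 3 and 2 without null replicate 1 or 3). Foxj1, the master regulator of motile cilia, read 4.51 and 4.94 against 6.69 and 6.18, with null replicate 1 at 6.07, and Spa17 read 6.002 and 6.149 against 7.59 and 7.17. Ependyma markers, among which Foxj1 and Tekt1 are counted, summed to 5890 and 13300 in wild type and 6700 and 12400 in heterozygous cells. Besides the kinesins and apart from cell type markers, lists in which limma called 0 genes were the insulin-like growth factor system (15 tested, 4 at an unadjusted p under 0.05), nucleoporins (16 tested, 5), ubiquitin-conjugating enzymes (28 tested, 3) and histones (3 tested, 0). Autophagy genes had 1 call among 31, Map1lc3b (-0.71), yet 27 of 31 lay below 0.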
